A study of Homo sapiens with 6 samples.

Results

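Epithelial-mesenchymal transition (EMT) is the program by which epithelial cells loosen their junctions and take on the cytoskeleton and matrix of mesenchymal cells. Transcription factors of the SNAI, ZEB and TWIST families are known to drive it by repressing E-cadherin and other epithelial genes, and the change is often partial, with markers of both states in the same cells. In EGFR-mutant lung cancer, EMT is known as one of the states in which tumor cells withstand EGFR inhibitors. Here 10 EMT markers and regulators (VIM, FN1, CDH1, CDH2, EPCAM, SNAI1, SNAI2, ZEB1, ZEB2 and TWIST1) were taken by symbol from the 27216 rows of an RNA-sequencing table of H1975, a human lung adenocarcinoma cell line that carries EGFR mutations. The set was chosen by known role and, in part, selected on a measured value. This was the difference of VIM between the adapted and parental samples, which was among the largest rises. The values of the 10 genes are therefore given as a description, and nothing is read from their calls in the fit below.

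The samples come from a study of resistance to Osi (osimertinib, an EGFR tyrosine kinase inhibitor), in which the RNA data served to look into oxidative phosphorylation. The table holds 3 samples labelled as 0 h of Osi (parental) and 3 labelled as 72 h of Osi (adapted), all of the same wild-type-labelled cell line, with a labelled dose of 1000 nM. DMSO, the solvent, names the columns of the parental samples, and the sources used here do not give the time those cells spent in DMSO, so drug and time in culture cannot be told apart. The labels say that dying cells were washed off before RNA extraction and that RNA was digested with RNase R, an enzyme that degrades linear RNA, whereas the study's methods name total RNA only. The labels do not say whether samples of a group came from separate cultures, so the error below is the spread between these samples, which may be technical.

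The unit was taken to be log2(FPKM + 1). FPKM divides the fragments of a gene by its length and by the depth of the sample. If the unit is right, levels can therefore be compared between genes. The effect of the labelled RNase R digestion on such comparisons was not tested. Read depth is unknown, so no counting error is given. Sums of the linear values ranged from 375342 to 387753 over the 6 samples. Across the 12656 rows with a mean of at least 1, adapted sample 1 stood apart. It correlated with adapted samples 2 and 3 at r = 0.978 and 0.977, against 0.992 between those 2 samples, and with the parental samples at 0.925, against 0.896 to 0.897 for the other adapted samples (across genes, which are not replicates). Adapted sample 1 was the highest of the 3 adapted samples in 39.6% of these rows and the lowest in 39.2%. Differences are therefore also given without it.

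Of the 10 genes, 7 were higher in all 3 adapted samples than in all 3 parental samples (VIM, FN1, CDH2, SNAI2, ZEB1, ZEB2 and TWIST1), 1 was lower (SNAI1), and in 2 the groups overlapped (CDH1 and EPCAM). Over all rows of the table the groups did not overlap in 43.3%, with 23.7% higher and 19.6% lower in adapted cells. Of the 10 genes, 6 had a mean of at least 1 and entered the fit across the table, in which 3 were past the threshold as higher (VIM, FN1 and SNAI2) and 1 as lower (SNAI1), beside 56.9% of all tested rows. Since this contrast helped to choose the genes, nothing is read from these counts. The other 4 genes (CDH2, ZEB1, ZEB2 and TWIST1) were below the filter and had no test. None of the 10 rows was among the 147 rows of the table that lie off the 6-decimal grid of the other values until a constant is subtracted from 1 group.

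VIM encodes vimentin, the main intermediate filament of mesenchymal cells. Its log2 values were 3.18, 3.12 and 3.03 in parental samples 1 to 3 and 7.62, 6.74 and 6.84 in adapted samples 1 to 3. All adapted samples were far above all parental samples, and adapted sample 1 was the highest. On the linear scale the mean went from 7.65 to 138 FPKM, a ratio of 18.1. The difference of the log2 means was 3.95 (standard error 0.28, n = 3 each), the 6th largest rise of the 12656 rows, and 3.68 without adapted sample 1. When all rows are ordered by level, VIM stood at place 7273 in parental and at place 355 in adapted cells. VIM lies on chromosome 10 from 17228259 to 17237593 on the plus strand in GENCODE v29 (GRCh38; the submitters' notes name hg38). The antisense gene VIM-AS1 overlaps its exons, and whether the authors counted by strand is not given in the sources used here.

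FN1 encodes fibronectin, a matrix glycoprotein that mesenchymal cells secrete in quantity. The log2 values were 6.70, 6.70 and 6.68 in the parental and 7.74, 8.41 and 8.37 in the adapted samples. FN1 was already abundant in parental cells, and here adapted sample 1 was the lowest of its group. The mean went from 102.5 to 294 FPKM, a ratio of 2.87, and the difference of the log2 means was 1.48 (standard error 0.22), or 1.70 without adapted sample 1. FN1 is on the minus strand of chromosome 2, from 215360440 to 215436172.

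The promoters of these 2 genes are shown because they are the abundant mesenchymal markers that were higher in every adapted sample. RefSeq promoter windows (GRCh38.p14, 250 bases before each start) were matched by symbol for 5 of the 10 genes (VIM, FN1, CDH2, ZEB1 and ZEB2), while those of CDH1, EPCAM, SNAI1, SNAI2 and TWIST1 were not analysed here. Capitals mark matches, on either strand, to 5 motifs: CACCTG (the E-box that SNAI and ZEB proteins bind), TGACTCA (AP-1), TGACGTCA (the cyclic AMP response element), GGGCGG (the GC box) and GGAATG (TEAD). VIM is given from chr10:17227991-17228240 (plus strand). FN1 is given from chr2:215436173-215436318 (minus strand), which stops short of its longest annotated first exon.
VIM: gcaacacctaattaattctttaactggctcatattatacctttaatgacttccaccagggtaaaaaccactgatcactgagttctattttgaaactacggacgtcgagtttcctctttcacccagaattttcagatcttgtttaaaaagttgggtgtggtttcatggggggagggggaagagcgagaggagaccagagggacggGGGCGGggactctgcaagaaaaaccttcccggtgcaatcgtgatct
FN1: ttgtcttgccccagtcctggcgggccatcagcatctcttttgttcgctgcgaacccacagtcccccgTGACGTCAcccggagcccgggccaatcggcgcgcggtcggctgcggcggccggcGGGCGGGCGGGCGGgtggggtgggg

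The VIM window holds a single GC box, at -46 from the start. The FN1 window holds the cyclic AMP response element at -183 and 6 GC boxes over all 250 bases, of which the matches at -129, -125 and -121 overlap in the capitals above. The E-box was not found in the windows of VIM, FN1, CDH2 or ZEB2, and was found in 2 of the 7 ZEB1 windows, at -57 in the first and at -242 and -85 in the other. Of 35116 promoter windows, 17.5% hold the E-box, 42.6% the GC box, 11.9% the TEAD element, 4.2% the AP-1 element and 1.65% the cyclic AMP response element. A match is a description of the sequence.

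CDH1 encodes E-cadherin, the adhesion receptor of epithelial adherens junctions, and lies on chromosome 16 from 68737225 to 68835548. Its log2 values were 7.46, 7.46 and 7.46 in the parental and 7.08, 7.65 and 7.66 in the adapted samples. Adapted sample 1 was below and adapted samples 2 and 3 were above every parental sample, so the groups overlapped. The means were 174.9 FPKM in parental and 178.7 FPKM in adapted cells, and the difference of the log2 means was 0.0071 (standard error 0.19), or 0.20 without adapted sample 1. EPCAM, an epithelial cell surface adhesion molecule used to recognise carcinoma cells, was 7.62, 7.57 and 7.61 in the parental and 7.30, 7.58 and 7.49 in the adapted samples. Adapted sample 2 lay within the parental range and the other adapted samples below it. The difference was -0.15 (standard error 0.083), or -0.069 without adapted sample 1. E-cadherin and EPCAM mRNA thus stayed among the abundant transcripts of every sample, at places 237 and 241 of all rows in adapted cells.

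CDH2 encodes N-cadherin, the cadherin that mesenchymal and neural cells use in place of E-cadherin. Its row was listed at 0, 0 and 0.045 in the parental and at 0.97, 0.63 and 0.51 in the adapted samples. The groups did not overlap, the difference of the log2 means was 0.69 (standard error 0.14), or 0.55 without adapted sample 1, and the adapted mean was 0.64 FPKM, beside 178.7 FPKM for CDH1 in the same cells. Within each sample, the log2 value of CDH2 was below that of CDH1 by at least 6.11, the smallest gap being that of adapted sample 1. VIM compared with CDH1 in the same way was lower by 4.28, 4.34 and 4.42 in the parental samples, higher by 0.53 in adapted sample 1, and lower by 0.91 and 0.82 in adapted samples 2 and 3. Adapted sample 1 was thus the only sample in which the VIM value exceeded the CDH1 value.

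The 2 Snail-family genes differed in opposite directions. SNAI1 encodes Snail, a zinc finger repressor of CDH1, and lies on chromosome 20 from 49982999 to 49988886. It was 2.80, 2.90 and 2.91 in the parental and 0.67, 0.45 and 0.52 in the adapted samples, and every adapted sample was lower than every parental sample. The mean went from 6.31 to 0.46 FPKM and the difference of the log2 means was -2.32 (standard error 0.074). SNAI2 encodes Slug, the related repressor. It was 0.83, 0.81 and 0.80 in the parental and 2.61, 2.94 and 2.87 in the adapted samples, and every adapted sample was higher. The mean went from 0.75 to 6.02 FPKM, a ratio of 7.98, and the difference was 1.99 (standard error 0.099). The adapted level of SNAI2 was thus close to the parental level of SNAI1. Within a sample, SNAI2 minus SNAI1 was -1.97, -2.09 and -2.11 in the parental and 1.94, 2.49 and 2.35 in the adapted samples. Without adapted sample 1, the differences were -2.39 for SNAI1 and 2.09 for SNAI2.

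ZEB1 and ZEB2 encode zinc finger repressors of epithelial genes that the miR-200 family is known to hold down. ZEB1 was 0.50, 0.50 and 0.57 in the parental and 1.79, 1.33 and 1.11 in the adapted samples, a difference of 0.88 (standard error 0.20). ZEB2 was 0.15, 0.14 and 0.18 in the parental and 2.06, 0.99 and 1.18 in the adapted samples, a difference of 1.25 (standard error 0.33). In both genes all adapted samples were higher and adapted sample 1 was the highest, and without it the differences were 0.69 and 0.93. The adapted means were 1.71 FPKM for ZEB1 and 1.80 FPKM for ZEB2, and without adapted sample 1 they were 1.33 and 1.12 FPKM, with ZEB1 then the higher. The antisense genes ZEB1-AS1 and ZEB2-AS1 overlap their exons, and antisense genes also overlap CDH1, CDH2 and TWIST1. TWIST1, a basic helix-loop-helix factor of mesoderm, was listed at 0, 0.031 and 0 in the parental and at 0.49, 0.26 and 0.10 in the adapted samples. It was higher in every adapted sample but reached only 0.23 FPKM on average (0.14 FPKM without adapted sample 1), and the difference of the log2 means was 0.28 (standard error 0.11), or 0.17 without adapted sample 1.

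In order of log2 level, the parental cells had EPCAM (7.60 ± 0.02, SD, n = 3), CDH1 (7.46 ± 0.0014), FN1 (6.69 ± 0.0072), VIM (3.11 ± 0.07), SNAI1 (2.87 ± 0.06), SNAI2 (0.81 ± 0.02), ZEB1 (0.52 ± 0.04) and ZEB2 (0.16 ± 0.02), with CDH2 and TWIST1 at or near 0. Only CDH2 and TWIST1 overlapped as neighbours in that order. The adapted cells had FN1 (8.17 ± 0.37), CDH1 (7.47 ± 0.33), EPCAM (7.45 ± 0.14), VIM (7.07 ± 0.48), SNAI2 (2.80 ± 0.17), ZEB2 (1.41 ± 0.57), ZEB1 (1.41 ± 0.35), CDH2 (0.70 ± 0.24), SNAI1 (0.55 ± 0.11) and TWIST1 (0.29 ± 0.20). Here the values of CDH1, EPCAM and VIM overlapped as neighbours, as did those of ZEB2 and ZEB1, and those of CDH2, SNAI1 and TWIST1. Among the adapted samples, adapted sample 1 was the highest in 6 of the 10 genes (VIM, CDH2, SNAI1, ZEB1, ZEB2 and TWIST1) and the lowest in the other 4 (FN1, CDH1, EPCAM and SNAI2).

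The rows most like VIM over the 6 samples, by the root mean square distance of log2 values centred on each row's mean among 11706 rows with a symbol, were THBS1 (distance 0.32), FSTL3 (0.33) and ALPP (0.41). THBS1, which encodes the matrix protein thrombospondin 1, was 2.11, 2.18 and 2.11 in the parental and 6.44, 6.51 and 6.25 in the adapted samples. FSTL3, which encodes a secreted binder of activin, was 1.80, 1.81 and 1.69 and then 5.37, 5.25 and 5.09. The rows most like CDH1 were HCAR3 (0.033), UCP2 (0.042) and IFT57 (0.043), which share its pattern of a low adapted sample 1 and higher adapted samples 2 and 3. UCP2, a mitochondrial carrier, was 3.58, 3.52 and 3.48 in the parental and 3.10, 3.69 and 3.65 in the adapted samples.

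Genes that work with or beside these markers were then examined as lists written from textbook knowledge and tested with limma over all 12656 rows, of which 30.7% were past the threshold as higher and 26.2% as lower in adapted cells. The median log2 difference of all tested rows was 0.028. The filter uses the mean over all 6 samples, so a gene with a parental mean under 1 was tested only through its adapted values. Among the genes named below, these are DSC3, GRHL3, SOX9 and FOXC1, and the list counts hold such genes too. Their filtered calls are given as a description. With no filter, the adjusted p values of the named ones were 0.00348 to 0.017 (limma). Fold changes on this scale understate the change of low genes. For 1 gene in groups of 3, the smallest p of an exact permutation test is 0.1, so the calls rest on the fit across the table.

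Of 16 catenins, desmosomal proteins and linkers that anchor cadherins to the cytoskeleton, 14 were tested. Past the threshold, 1 rose and 5 fell, 8 did not pass, and the median difference was 0.053. DSC3, a desmosomal cadherin, rose from 0.93 ± 0.04 to 2.39 ± 0.32 (SD, n = 3 each, adjusted p = 2.36e-04, limma). CTNNB1, which encodes beta-catenin, fell from 6.68 ± 0.10 to 6.04 ± 0.09 (adjusted p = 4.06e-04), DSG2, a desmoglein, from 6.56 ± 0.05 to 6.14 ± 0.14 (adjusted p = 0.00351), and PKP3, a plakophilin, from 5.04 ± 0.04 to 4.62 ± 0.07 (adjusted p = 0.00117). CTNNA1, which encodes alpha-catenin, was 7.38 and 7.43 on average (adjusted p = 0.512). Without adapted sample 1 the list had 7 higher and 5 lower, and without parental sample 1 or parental sample 2 it had 3 lower.

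Of 12 factors that hold the epithelial state, 11 were tested, of which 4 rose, 5 fell and 2 did not pass, with a median of 0.16. Among the factors of the Grainyhead family, which activate epithelial junction genes, GRHL3 rose from 0.56 ± 0.09 to 2.16 ± 0.53 (adjusted p = 0.0012, limma) and GRHL2 from 3.71 ± 0.03 to 4.44 ± 0.35 (adjusted p = 0.00671). GRHL1 of the same family averaged 3.39 in parental and 3.78 in adapted cells, and its groups overlapped (adjusted p = 0.158). OVOL2, a zinc finger repressor of ZEB1, rose from 3.22 ± 0.02 to 3.89 ± 0.50 (adjusted p = 0.035), while the related OVOL1 fell from 3.01 ± 0.06 to 2.04 ± 0.09 (adjusted p = 7.03e-05). ESRP1, which directs epithelial splicing, fell from 6.50 ± 0.10 to 5.41 ± 0.32 (adjusted p = 7.95e-04), and EHF, an epithelial ETS factor, from 5.79 ± 0.06 to 5.08 ± 0.09 (adjusted p = 1.48e-04). FOXA2, an endoderm factor below the filter, averaged 1.42 in parental and 0.28 in adapted cells and was not tested. Leaving out any 1 of the parental samples, adapted sample 2 or adapted sample 3 left 2 higher, leaving out adapted sample 1 gave 6 higher, and the number that fell was 5 in each of these 6 fits. Among these fits, OVOL2 kept its call only without adapted sample 1 (adjusted p of 0.0804 to 0.111 in the other 5 fits).

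**Figure D1:**
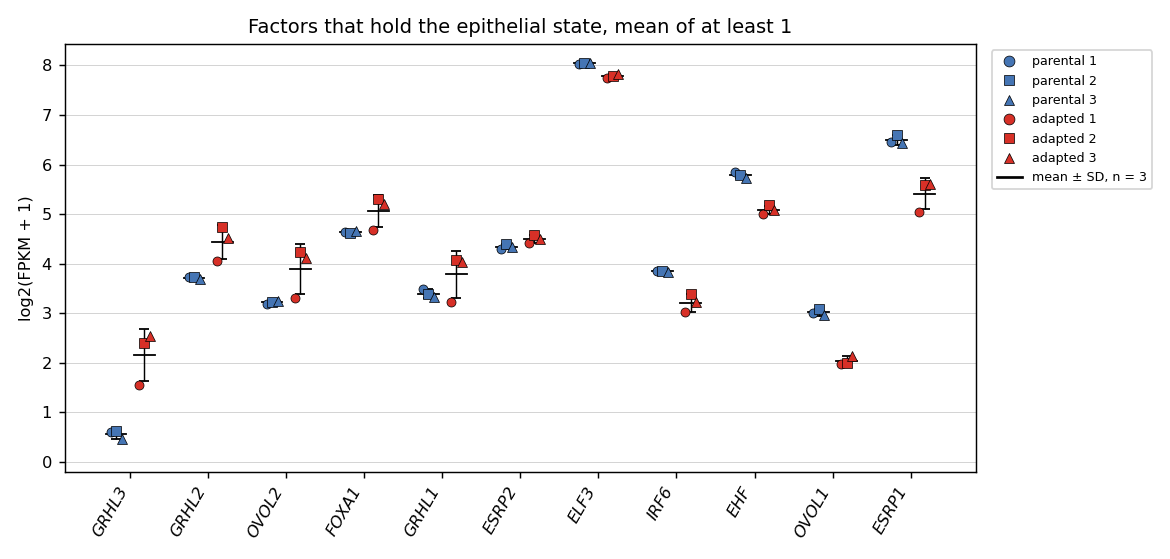
The y axis gives log2(FPKM + 1) of the 11 tested epithelial factors on the x axis, ordered by their difference, in parental (blue) and adapted (red) samples with the mean ± SD (n = 3). GRHL3, GRHL2 and OVOL2 are higher in every adapted sample, with adapted sample 1 the lowest of the 3, and OVOL1 and ESRP1 are lower in every adapted sample.

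All 18 epithelial surface, polarity and trafficking genes were tested, and most (12) did not pass the threshold. Past it, 3 rose and 3 fell, with a median of 0.021. LLGL2, a polarity protein and known ZEB1 target, rose from 5.11 ± 0.04 to 5.55 ± 0.18 (adjusted p = 0.00646, limma), and MARVELD2, which encodes tricellulin, from 3.21 ± 0.05 to 3.82 ± 0.36 (adjusted p = 0.0164). The falls were in LAD1 (5.92 ± 0.0050 to 4.83 ± 0.13, adjusted p = 3.20e-05), an anchoring filament protein, and in the trafficking proteins MAL2 (6.53 ± 0.06 to 5.86 ± 0.15) and RAB25 (4.84 ± 0.04 to 4.42 ± 0.20). CRB3, a Crumbs polarity protein that ZEB1 is known to repress, averaged 5.13 in parental and 5.10 in adapted cells (adjusted p = 0.759). Without adapted sample 1 the list had 7 higher. MARVELD2 lost its call without parental sample 3 (adjusted p = 0.0547), adapted sample 2 (0.0608) or adapted sample 3 (0.0515).

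Among 20 other cadherins, 18 were below the filter. CDH24 rose from 2.66 ± 0.06 to 3.13 ± 0.20 (adjusted p = 0.00844, limma). CDH3, the P-cadherin gene, averaged 7.22 in parental and 7.06 in adapted cells (adjusted p = 0.0656). No tested cadherin of this list was lower past the threshold (both had an unadjusted p under 0.05), and without adapted sample 1 the count was 1. CDH5, the cadherin of endothelium, averaged 0.21 in parental and 1.71 in adapted cells and was below the filter.

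Of 32 mesenchymal genes, 20 were tested, of which 11 rose, 3 fell and 6 did not pass, and the median difference was 0.67. MYL9, a myosin light chain of contractile cells, rose from 1.22 ± 0.07 to 4.32 ± 0.16 (adjusted p = 1.72e-06, limma) and SPARC, a matricellular glycoprotein, from 1.19 ± 0.05 to 4.12 ± 0.25 (adjusted p = 4.85e-06). The falls were in TNC, which encodes the matrix protein tenascin C (7.55 ± 0.03 to 5.15 ± 0.48, adjusted p = 9.84e-05), in CD44, a hyaluronan receptor (7.28 ± 0.15 to 6.36 ± 0.58, adjusted p = 0.0206), and in TPM2, a tropomyosin (3.07 ± 0.09 to 2.29 ± 0.10, adjusted p = 2.36e-04). The more abundant tropomyosin TPM1 rose from 5.59 ± 0.07 to 7.45 ± 0.08 (adjusted p = 2.97e-06). CD44 lost its call without parental sample 1 (adjusted p = 0.0683), parental sample 2 (0.0543), adapted sample 2 (0.0758) or adapted sample 3 (0.0648), and without adapted sample 1 the list had 5 lower. Of the 12 genes below the filter, FAP, BGN, COL1A2, COL6A3, CDH11 and PDGFRB averaged under 0.1 in both groups, and LOX overlapped between the groups (means 0.95 and 0.77). The other 5 were higher in every adapted sample, as were 23.7% of all rows of the table. MMP2, a matrix metalloprotease, averaged 0.025 in parental and 1.46 in adapted cells, FBN1, the fibrillin 1 gene, 0.31 and 1.17, WNT5A, a Wnt ligand, 0.079 and 0.86, CNN1, a calponin, 0.057 and 0.67, and COL3A1, a fibrillar collagen, 0.0073 and 0.55, with 1.37 in adapted sample 1 alone.

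**Figure D2:**
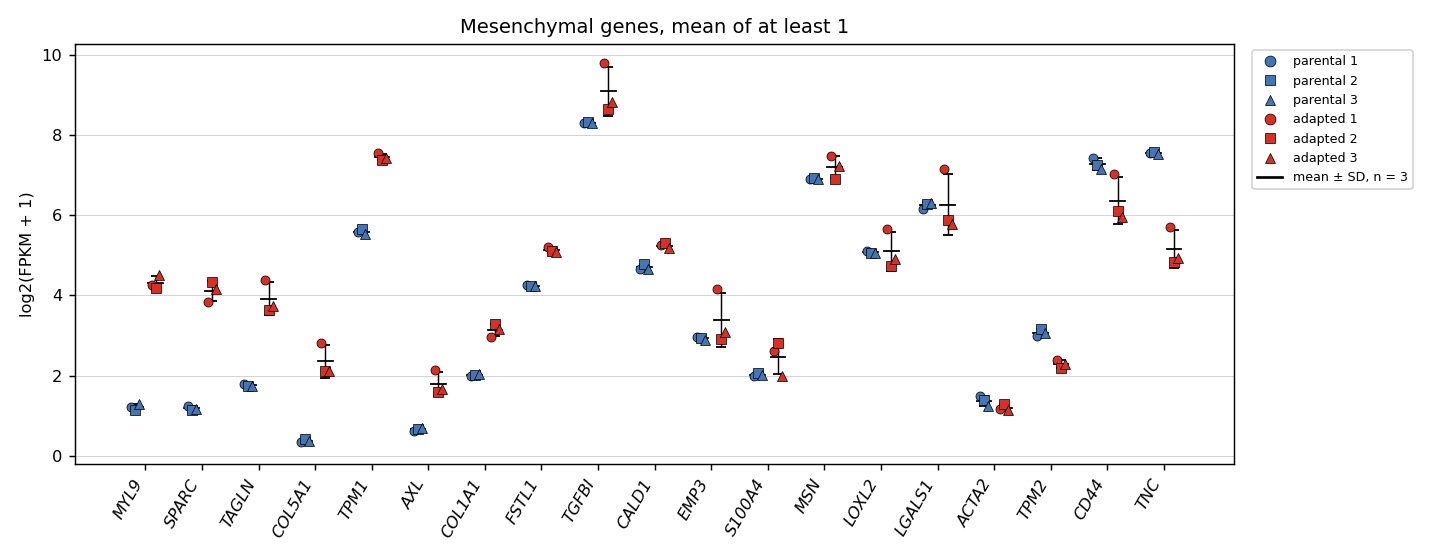
The y axis gives log2(FPKM + 1) of the tested mesenchymal genes (without 1 that is not reported here) on the x axis, ordered by their difference, in parental (blue) and adapted (red) samples with the mean ± SD (n = 3). MYL9 and SPARC are far higher in every adapted sample, and TNC, CD44 and TPM2 at the right are lower.

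Of 16 other transcription factors linked to EMT, 10 were tested, of which 5 rose, 1 fell and 4 did not pass, with a median of 0.29. SOX4 rose from 4.26 ± 0.02 to 6.13 ± 0.03 (adjusted p = 1.15e-06, limma), SOX9 from 0.81 ± 0.06 to 1.75 ± 0.15 (adjusted p = 2.68e-04) and FOXC1 from 0.93 ± 0.01 to 1.51 ± 0.18 (adjusted p = 0.00314). TWIST2, the paralog of TWIST1, fell from 2.79 ± 0.01 to 2.46 ± 0.06 (adjusted p = 0.00446), and so was above TWIST1 in both groups. GSC, PRRX1 and TBXT were listed at 0 in every sample.

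Of 8 receptors and binding partners of fibronectin, 6 were tested, of which 2 rose, 2 fell and 2 did not pass, shares close to those of all tested rows. ITGA5, the alpha chain of the main fibronectin receptor, fell from 5.32 ± 0.03 to 3.98 ± 0.29 (adjusted p = 1.69e-04, limma), and TGM2, a transglutaminase that also binds fibronectin, from 6.73 ± 0.04 to 4.65 ± 0.26 (adjusted p = 1.85e-05). ITGB1, the beta chain partner of ITGA5, averaged 8.64 in parental and 8.77 in adapted cells (adjusted p = 0.213). ITGB3, below the filter and not tested, averaged 0.37 in parental and 1.33 in adapted cells, with no overlap between the groups. ITGA4, also not tested, averaged 0.023 and 0.015. ITGAV rose from 5.40 ± 0.10 to 5.86 ± 0.28 (adjusted p = 0.0234) and SDC4, a syndecan, from 7.59 ± 0.03 to 7.82 ± 0.07 (adjusted p = 0.019). ITGAV lost its call without parental sample 2 (adjusted p = 0.0586), parental sample 3 (0.0813) or adapted sample 3 (0.0551). SDC4 lost its call without parental sample 1 (0.067), parental sample 2 (0.0618) or parental sample 3 (0.0806). Over the fits that left out 1 sample, the number that rose was 0 to 3, with 3 in the fit without adapted sample 1.

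**Figure D3:**
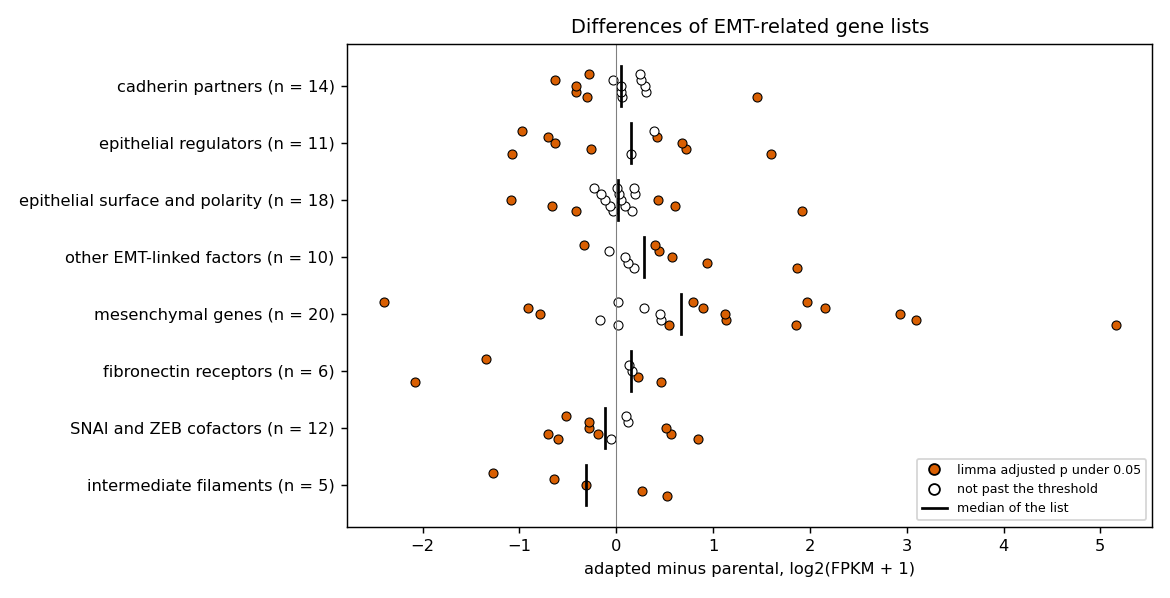
The x axis gives adapted minus parental on the log2(FPKM + 1) scale for each tested gene of 8 lists on the y axis, filled where limma's adjusted p was under 0.05, with a bar at the list's median. The median of the mesenchymal genes is 0.67 and those of the epithelial surface and cadherin partner lists are 0.021 and 0.053.

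The lung carcinoma label was checked against epithelial markers. The summed level of KRT7, KRT8, KRT18, KRT19, NKX2-1, NAPSA and SFTPB was 3473 to 3511 FPKM in parental and 3280 to 3522 FPKM in adapted samples, and SFTPB, a surfactant gene, was below the filter. The makeup of the sum differed. KRT19 was the most abundant marker in parental cells (26.8% of the sum) and KRT7 in adapted cells (41.7%, against 19.2% in parental cells). Of the 6 tested, 2 rose and 4 fell past limma's threshold, beside 30.7% and 26.2% of all tested rows. The keratin KRT7 rose by 1.07 and NKX2-1, a lung lineage factor, by 0.47 on the log2 scale. The falls were of -0.81 in NAPSA, an aspartic protease of lung epithelium, and of -0.75, -0.57 and -0.28 in the keratins KRT19, KRT18 and KRT8. KRT8 (adjusted p = 0.0477) kept its call only without adapted sample 1 among the fits that left out 1 sample (adjusted p of 0.111 to 0.134 in the other 5). The fibroblast list shares 4 genes with the mesenchymal list. Other cell types could carry mesenchymal transcripts, so their markers were summed as well. The 8 fibroblast markers summed to 3.04 to 3.17 FPKM in parental and 8.60 to 9.33 FPKM in adapted samples, of which COL1A1 made up 97.8% and 86.7%. It was the only one tested and rose from 2.02 to 3.14 (adjusted p = 7.80e-05, limma). The other fibroblast markers were below the filter, THY1 was at 0 in every sample, and COL1A2, DCN, PDGFRA and PDGFRB averaged under 0.1 in both groups. The other 2, the matrix genes LUM and COL3A1, were low but higher in every adapted sample, as were 23.7% of all rows of the table. LUM averaged 0.053 in parental and 0.61 in adapted cells. COL3A1 was at most 0.022 in the parental samples and was 1.37, 0.17 and 0.11 in the adapted samples. The part of other cells in the higher mesenchymal values was not tested. Of 4 leukocyte markers, CD68, a lysosomal protein, made up 99.8% of the summed parental and 99.9% of the summed adapted levels. The sum was 73.8 to 76.3 FPKM in parental and 14.6 to 29.6 FPKM in adapted samples, and CD3E was at 0 throughout. The 4 endothelial markers summed to 1.13 to 1.88 FPKM in parental and 1.49 to 3.50 FPKM in adapted samples. PECAM1, an adhesion molecule, made up 88% of the parental sum and CDH5 88.3% of the adapted sum. PECAM1 averaged 1.22 in parental and 0.089 in adapted cells, and CDH5 0.21 and 1.71, with no overlap between the groups in either gene. In bulk samples such as these, a change in the share of cells that express a gene and a change of its RNA per cell cannot be told apart.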

How the data were processed

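H1975 cells at 0 h (parental, n = 3) and after 72 h of Osi (adapted, n = 3) were compared. The authors deposited 1 table of log2 values, with 27216 rows, of which 7260 are unannotated NewGene_ loci. The unit is not named and was taken as log2(FPKM + 1) from the values. Per the labels, the submitters' processing notes name STAR, Bowtie2 2.1.0, edgeR and hg38, without roles; the quantifier and annotation are not given in the sources used here. The test named in the study's methods needs counts, so limma 3.58.1 (R 4.3.3; lmFit, eBayes with an intensity trend, unpaired) was used on rows with a mean of at least 1, with Benjamini-Hochberg adjustment over 12656 rows and a threshold of 0.05. It was tested on simulated data.

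The members, lists and alternatives were chosen with earlier results of these data known. Named genes were, per list, at most 3 with the highest and at most 3 with the lowest differences among called genes whose groups did not overlap. Genes named beyond these (CTNNA1, GRHL1, CRB3, CDH3, CDH5, FOXA2, TPM1, ITGB1, FBXO11, BTRC, the other genes below the filter, the cell type markers and those listed at or near 0) were chosen after their values were seen. MIR200CHG and MIR205HG, the other names set, were not analysed here, and 2 genes that the rule names are counted in their lists but not reported here. The 147 rows off the 6-decimal grid were kept as deposited, and 0 sample columns were left unused. Leaving out 1 sample at a time for the cell type markers was added after the data were seen. Gene positions are from GENCODE v29 and promoters from RefSeq (GRCh38.p14), read with Python 3.11. The standard error of a member's difference was computed from the group SDs.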

Additional observations from a re-analysis of the deposited data

How the results depend on the processing

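Tests that need counts were not run, since the table holds log2 values, and with depth unknown no counting error can be given for low genes such as TWIST1 and CDH2. No scaling moved the median difference of all tested rows by over 0.1. The 7202 rows past the threshold became 4532 with the stricter filter (mean of at least 3, so fewer rows), and 5763 to 8370 over the 6 fits that each left out 1 sample. The replicate numbers did not pair the samples (correlations of deviations -0.0509, -0.0309 and -0.0203), and with the replicate number as a block 6761 rows were past the threshold, which changed no list count by over 1.5 times.

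With a pseudocount of 0.1, the log2 difference was 2.70 for CDH2, -3.53 for SNAI1, 2.83 for SNAI2, 1.69 for ZEB1, 2.99 for ZEB2 and 1.48 for TWIST1. With the stricter filter, 0 cadherin partners, 1 other EMT-linked factor, 4 mesenchymal genes, 0 other cadherins and 1 intermediate filament gene were higher past the threshold, and 0 other EMT-linked factors were lower (limma), since genes with a mean under 3 were not tested. With no filter, 2 epithelial regulators and 3 other cadherins were higher and 1 other cadherin was lower. With median centring, 1 other cadherin was lower. Leaving out 1 sample at a time gave 1 to 7 higher and 3 to 5 lower cadherin partners, 2 to 6 higher epithelial regulators, 2 to 7 higher epithelial surface genes, 2 to 5 lower mesenchymal genes, 0 to 1 lower other cadherins and 0 to 3 higher fibronectin receptors. The cause of these moves was not tested. The difference of VIM was then 3.68 to 4.12, that of CDH1 -0.091 to 0.20 and that of TWIST1 0.17 to 0.37.

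Of 618 values for the 42 genes that the naming rule chose from the lists under the alternatives, 0 changed sign and 32, in 7 genes, lost the call. With no filter these were OVOL2, MARVELD2, CD44, LMNB2, ITGAV and HDAC2 (adjusted p of 0.0774 to 0.143, limma).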

Other observations

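Corepressors and turnover factors of the SNAI and ZEB proteins were all expressed. Of 12 tested, 3 rose, 6 fell and 3 did not pass limma's threshold. Of all tested rows, 30.7% were past it as higher and 26.2% as lower. GSK3B, a kinase that marks Snail for degradation, rose from 3.57 ± 0.05 to 4.14 ± 0.11 (SD, n = 3 each, adjusted p = 6.24e-04), and FBXL14, a ubiquitin ligase subunit for SNAI and TWIST proteins, from 2.81 ± 0.11 to 3.32 ± 0.11 (adjusted p = 0.00213). HDAC2 rose from 3.42 ± 0.02 to 4.26 ± 0.54 (adjusted p = 0.0188) and HDAC1, the paralogous deacetylase, fell from 6.01 ± 0.03 to 5.41 ± 0.20 (adjusted p = 0.00185). HDAC2 lost its call without parental sample 1 (adjusted p = 0.0538), parental sample 2 (0.0538) or parental sample 3 (0.0504), and its difference of 0.84 became 0.54 without adapted sample 2. FBXL5, a ubiquitin ligase subunit also listed as a turnover factor, fell by 0.70 on the log2 scale (adjusted p = 5.92e-04, limma). FBXO11, listed with it, fell from 3.97 ± 0.08 to 3.78 ± 0.01 (adjusted p = 0.0358). BTRC averaged 2.29 in parental and 2.40 in adapted cells (adjusted p = 0.26). The turnover factors thus differed in both directions. CTBP2, a corepressor that ZEB proteins recruit, fell from 4.67 ± 0.14 to 4.15 ± 0.20 (adjusted p = 0.00698).

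Beside VIM, 5 of 13 non-keratin intermediate filament genes and plectin were tested, and all 5 passed limma's threshold, as did 56.9% of all tested rows. SYNM, which encodes synemin, a partner of vimentin, rose from 1.46 ± 0.02 to 1.98 ± 0.08 (adjusted p = 0.00126), and PLEC, which encodes the linker plectin, from 5.40 ± 0.03 to 5.67 ± 0.06 (adjusted p = 0.00554). The 3 nuclear lamin genes fell. LMNB1 went from 5.01 ± 0.02 to 3.73 ± 0.27 (adjusted p = 1.76e-04), LMNA from 6.98 ± 0.03 to 6.34 ± 0.16 (adjusted p = 7.21e-04) and LMNB2 from 5.17 ± 0.06 to 4.86 ± 0.17 (adjusted p = 0.0232). LMNB2 kept its call only without adapted sample 1 (adjusted p of 0.0512 to 0.0845 in the other 5 fits that left out 1 sample). The type III relatives of vimentin, DES, GFAP and PRPH, averaged at most 0.23 in both groups.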
